A study of Mus musculus with 2 samples.

Results

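Matrix proteases and their TIMP inhibitors were measured in hearts of female B6CASTF1/J mice at 4 days of age, by total RNA sequencing with reduced ribosomal RNA and ERCC spike-ins. The members were all genes with an annotated protein-coding transcript and a symbol beginning with Mmp or Timp and a digit, or with Adamts. This gave 51 genes of 55536 annotated genes, of which 22028 are annotated as protein-coding. They comprise 16 secreted matrix metalloproteinases (MMPs), 7 membrane MMPs, 19 ADAMTS proteases, 5 ADAMTS-like proteins and 4 tissue inhibitors of metalloproteinases (TIMPs). The series holds 1 group of 2 libraries, replicate 1 and replicate 2, each from 300 ng of RNA. No treated, mutant or older group was analysed here, so the data describe levels and the spread between 2 hearts, with no contrast between conditions. The labels give the 2 hearts separate tissue numbers but 1 shared donor identifier, so the spread may be partly technical. The strain is the first-generation cross of C57BL/6J and CAST/EiJ mice, so each gene is present as 1 allele of each parent, and the values below sum both.

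MMPs and ADAMTS proteases are zinc enzymes that cut proteins of the extracellular matrix. MMPs are held inactive by a propeptide until it is removed, whereas TIMPs bind the active site of mature enzymes. ADAMTS proteases carry thrombospondin repeats that anchor them in the matrix, and ADAMTS-like proteins share those repeats without a protease domain. In the newborn heart such enzymes are known for trimming versican-rich early matrix, processing procollagen and remodelling the valves.

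The coding sequence of the zinc-binding active site was found in nearly all MMP and ADAMTS genes, and it is shown here for the leading MMPs and ADAMTS proteases by level. Each line is the coding sequence of the zinc-binding site, 5′ to 3′ on the sense strand, and capitals mark the 3 histidine codons whose side chains hold the zinc. The MMP sites lie within 1 exon at chr8:92839279-92839311 for Mmp2 (exon 8), chr14:54437627-54437659 for Mmp14 (exon 5) and chr8:95368585-95368617 for Mmp15 (exon 5), all on the plus strand of mm10. The ADAMTS sites are spliced from 2 exons within chr16:85799191-85799545 for Adamts1 (exons 3 and 4) and chr6:92905285-92908493 for Adamts9 (exons 8 and 9), both on the minus strand.
Mmp2: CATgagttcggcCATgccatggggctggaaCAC
Mmp14: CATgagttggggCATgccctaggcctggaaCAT
Mmp15: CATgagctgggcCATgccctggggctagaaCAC
Adamts1: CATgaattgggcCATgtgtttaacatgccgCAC
Adamts9: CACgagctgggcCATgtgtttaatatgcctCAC

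Codons of this site, with a glycine or asparagine 3 codons before the last histidine, were found in 16 of 16 secreted MMPs, 7 of 7 membrane MMPs and 18 of 19 ADAMTS genes. The glycine form was present in all of these MMPs and in 13 ADAMTS genes, and the asparagine form in Adamts1, Adamts4, Adamts9, Adamts15 and Adamts20. Adamts8 matched neither form. The site was not found in any of the 5 ADAMTS-like genes or the 4 TIMPs. It crossed an exon junction in all 18 ADAMTS genes that held it and in 0 of 23 MMPs, where it lay in exon 5 in 18. The cysteine switch is the propeptide sequence that blocks the zinc in an inactive MMP. It was searched in a strict form, as codons for proline, arginine, cysteine and glycine and, after a short gap, aspartate. This strict form was found in 15 of 16 secreted MMPs (not in Mmp11), 4 of 7 membrane MMPs and 0 ADAMTS genes. Variant forms were not searched, so a missing match does not mean that the gene lacks a switch.

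TIMPs instead begin with a cysteine-x-cysteine stretch that enters the active site of the enzyme, and all 4 had its codons near the start of the coding sequence. The 27 bases of each are shown to set the inhibitors against the zinc sites, with both cysteine codons in capitals. They lie at chrX:20871111-20871137 (plus strand) for Timp1, chr11:118354986-118355012 (minus) for Timp2, chr10:86300923-86300949 (plus) for Timp3 and chr6:115251665-115251691 (minus) for Timp4, in mm10.
Timp1: TGTagcTGTgccccaccccacccacag
Timp2: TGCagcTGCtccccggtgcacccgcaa
Timp3: TGCacaTGCtctcccagccatccccag
Timp4: TGCagcTGTgcgcctgcgcacccccag

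A member was counted as expressed at 1 TPM, a level scaled to transcript length and library total, or more in both hearts. By this rule 31 of the 51 members (60.8%) were expressed, against 54.2% of all 22028 annotated protein-coding genes, so the share of expressed members was near the background. The classes differed widely in this count. All 5 ADAMTS-like genes, 15 of 19 ADAMTS genes, 3 of 4 TIMPs and 4 of 7 membrane MMPs were expressed, but 4 of 16 secreted MMPs. The expressed members had a median level of 8.23 TPM, against 12.5 TPM for the 11948 expressed protein-coding genes. A few genes carried most of the total: Timp2, Mmp2, Mmp15, Timp3 and Mmp14 held 59.0% ± 0.275 of the members' summed TPM (SD, n = 2). All 51 members together made up 0.0588% ± 0.00271 of the libraries' TPM (SD, n = 2). The totals were 36175363 and 32509660 estimated counts in replicates 1 and 2. The deposited posterior SD of the gene count was 0 for every member, so the counting shared no reads between these genes and others.

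**Figure D1:**
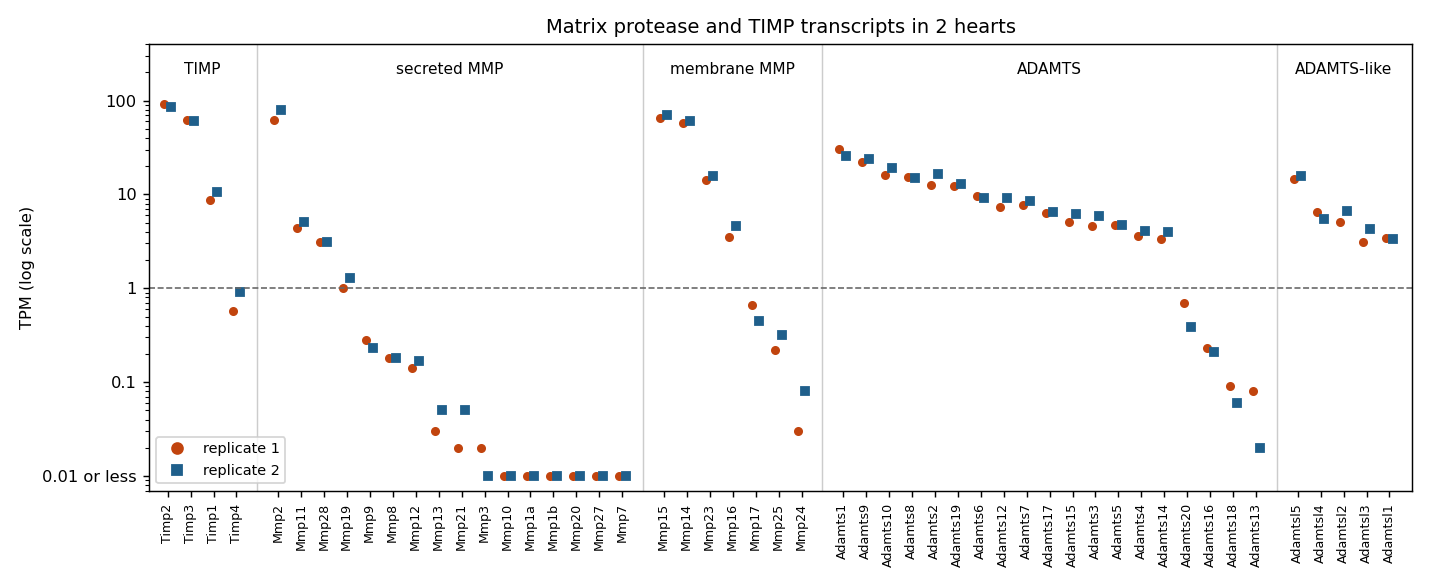
TPM (log scale) of the 51 members in each heart, grouped by class and ordered by mean TPM, with circles for replicate 1 and squares for replicate 2. The dashed line marks 1 TPM. Values at or below 0.01 TPM are drawn at 0.01. In the ADAMTS panel 15 of 19 genes lie above the line, and in the secreted MMP panel 4 of 16.

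Among the secreted MMPs, Mmp2 (gelatinase A), which degrades denatured collagen and basement membrane collagen, stood far above the rest. Its level was 62.1 TPM in replicate 1 and 79.8 TPM in replicate 2. The other gelatinase, Mmp9, an enzyme of neutrophils and macrophages, had 0.28 and 0.23 TPM from 24 and 17 counts. The log2 ratio of Mmp2 to Mmp9 was 8.12 ± 0.46 (SD, n = 2), and the 2 genes did not overlap. On the deposited posterior mean TPM it was 6.82. Neutrophil and macrophage transcripts were low but present in the same hearts. The 6 neutrophil markers summed to 13.8 and 18.3 TPM, and the 5 macrophage markers to 19.5 and 23.6 TPM. Of the neutrophil markers 4 reached 1 TPM in both hearts, with S100a9 the highest on average at 6.47 and 6.90 TPM, while Elane had 0 counts. Of the macrophage markers 4 reached 1 TPM in both hearts. In whole tissue, few cells of a type and little RNA per cell cannot be told apart.

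The other 3 expressed secreted MMPs were much lower. Mmp11 (stromelysin-3), which is activated inside the cell by furin, had 4.43 TPM in replicate 1 and 5.09 TPM in replicate 2, and its log2 ratio to Mmp2 was −3.89 ± 0.12 (SD, n = 2), against −3.21 in the second quantification. The Mmp11 locus overlaps Chchd10 on the other strand, a mitochondrial protein gene at 391 and 377 TPM, chosen for naming after its values were seen. Mmp28 (epilysin) had 3.09 and 3.10 TPM, and Mmp19 lay just above the threshold at 1.01 and 1.30 TPM. The 4 collagenases, Mmp1a, Mmp1b, Mmp8 and Mmp13, which cut intact fibrillar collagen, summed to 0.21 and 0.23 TPM. Both stromelysins, Mmp3 and Mmp10, summed to 0.02 and 0 TPM, and Mmp12, the macrophage elastase, had 0.14 and 0.17 TPM.

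Most of these low genes are neighbours. On chromosome 9 of mm10, 10 MMP genes from Mmp13 to Mmp7 lie within 427 kb (chr9:7272514-7699585). None of the 10 was expressed, whereas 8 of the 13 MMP genes elsewhere were. All 10 together received 19 counts in replicate 1 and 20 counts in replicate 2. No reads were counted in either heart for 6 of them: Mmp7, Mmp10, Mmp20, Mmp27, Mmp1a (annotated as a polymorphic pseudogene) and Mmp1b. A count of 0 allows up to 0.0829 CPM (counts scaled to the library total, without length) in replicate 1 and 0.0923 CPM in replicate 2, an allowance of 3 counts that covers counting error only. Mmp1a and Mmp1b are close copies of each other, but neither received reads that could have been split.

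The promoters of this cluster differ in base composition from those found for expressed members, so 2 of each kind are shown. Each is the 120 bases before the transcription start of a RefSeq gene on GRCm38.p6, 5′ to 3′ on the gene's strand, at chr9:7502222-7502341 for Mmp10, chr9:7272394-7272513 for Mmp13, chr14:54431478-54431597 for Mmp14 (all plus) and chr16:85803114-85803233 for Adamts1 (minus). Capitals mark TGAGTCA or its reverse complement TGACTCA (the letters AP-1 factors bind), TATAAA between 45 and 10 bases before the start, and the GC box GGGCGG or its reverse complement CCGCCC.
Mmp10: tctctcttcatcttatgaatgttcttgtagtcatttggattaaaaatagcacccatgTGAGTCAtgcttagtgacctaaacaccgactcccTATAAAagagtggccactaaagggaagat
Mmp13: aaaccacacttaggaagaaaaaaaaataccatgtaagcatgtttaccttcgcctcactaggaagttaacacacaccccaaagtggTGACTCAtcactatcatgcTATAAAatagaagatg
Mmp14: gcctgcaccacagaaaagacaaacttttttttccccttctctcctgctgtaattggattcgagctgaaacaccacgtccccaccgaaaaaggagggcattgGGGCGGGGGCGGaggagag
Adamts1: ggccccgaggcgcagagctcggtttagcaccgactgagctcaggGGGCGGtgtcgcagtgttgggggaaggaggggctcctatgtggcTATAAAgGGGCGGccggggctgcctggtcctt

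RefSeq promoters were matched for 36 of the 51 members, 39 promoters in all, and the 250 bases before each start were searched. All 10 cluster genes had a match, but only 19 of the 31 expressed members did, and Mmp2 was among those without. The values for expressed members below cover these 19 genes only. The AP-1 letters, on either strand, were present in 7 of the 12 promoters of the chromosome 9 cluster (58.3%), in 0 of 20 promoters of expressed members and in 4.46% of all 32851 promoters in the table. The GC box, on either strand, was present in 0 of the 12 cluster promoters, in 16 of the 20 promoters of expressed members (80%) and in 32.7% of all promoters. TATAAA, on the sense strand within its window, was present in 4 of the 12 cluster promoters (33.3%), in 2 of the 20 (Adamts1 and Adamtsl2) and in 2.25% of all promoters. The median GC content was 40.2% in the cluster, 64% in expressed members and 52.4% in all promoters. The 7 promoters of members that were neither in the cluster nor expressed had a median GC content of 65.2%. A match is a run of letters, and whether a factor binds there was not measured.

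**Figure D2:**
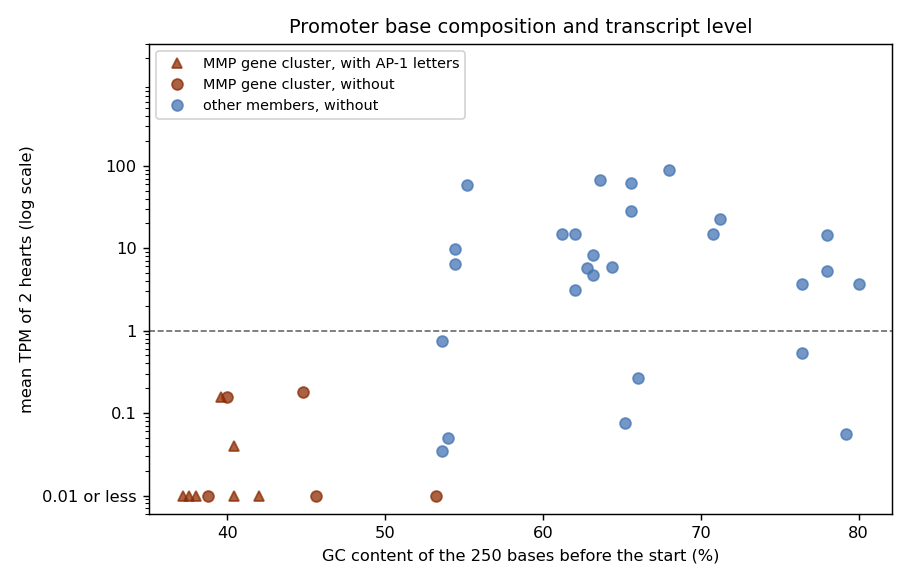
Mean TPM of the 2 hearts (log scale) against the GC content of the 250 bases before the start, for the 39 matched promoters, with triangles where the AP-1 letters were present. Brown points are the MMP gene cluster and blue points the other members, and values at or below 0.01 TPM are drawn at 0.01. All 12 cluster promoters lie below the dashed line at 1 TPM, while the other members lie on both sides of it.

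Membrane MMPs carried more transcript than the secreted ones. Their summed TPM was 140 in replicate 1 and 152 in replicate 2, against 71.3 and 90.0 for the secreted MMPs, a log2 ratio of 0.87 ± 0.16 (SD, n = 2). Mmp15 (MT2-MMP) had 64.6 and 70.9 TPM. Mmp14 (MT1-MMP), the main cell-surface activator of pro-MMP2, had 57.0 and 60.2 TPM. Mmp14 was below Mmp15 in both hearts, with a log2 ratio of −0.21 ± 0.04 (SD, n = 2) in TPM and −1.24 in CPM, and its TPM range did not overlap that of Mmp15. In the second quantification the log2 ratios were only −0.005 and −0.09. The ranges overlapped there, with Mmp14 at 73.7 and 75.8 TPM and Mmp15 at 74.0 and 80.7 TPM. The range of Mmp15 overlapped that of Mmp2.

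Mmp23, a type II membrane protein without the haemopexin domain, followed at 14.3 TPM in replicate 1 and 15.6 TPM in replicate 2. Mmp16 (MT3-MMP) had 3.50 and 4.60 TPM. Mmp24, the remaining transmembrane form, had 0.03 and 0.08 TPM. The lipid-anchored pair Mmp17 and Mmp25 summed to 0.88 and 0.77 TPM. The 4 transmembrane forms held most of the class sum, at 125 and 136 TPM.

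The ADAMTS proteases summed to 162 TPM in replicate 1 and 172 TPM in replicate 2. That was below the 212 and 242 TPM of all MMPs, with a log2 ratio of −0.44 ± 0.08 (SD, n = 2), but ADAMTS genes have longer transcripts and the direction turned in CPM, where the ratio was 0.31. The class was spread over many genes, and 12 of its 19 members had a mean of 5 TPM or more, against 1 of 16 secreted MMPs.

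The 7 proteoglycanases, the ADAMTS proteases known for cutting versican and aggrecan, held 81.9 and 79.6 TPM. Adamts1 led them with 30.6 TPM in replicate 1 and 25.5 TPM in replicate 2. Adamts9, linked in mice to versican removal from the developing heart and valves, had 22.0 and 23.8 TPM, and its TPM range lay wholly below that of Adamts1. In CPM the order turned, with 114 and 119 for Adamts9 against 99.9 and 85.2 for Adamts1. Adamts8 had 15.2 and 15.04 TPM and Adamts15 had 5.10 and 6.23 TPM.

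Both enzymes named aggrecanases for their action in cartilage were lower. Adamts5 had 4.69 TPM in each heart and Adamts4 had 3.63 and 4.06 TPM, so Adamts5 was above Adamts4 in both hearts by a log2 ratio of 0.29 ± 0.11 (SD, n = 2) in TPM and 1.63 in CPM. Adamts1 exceeded Adamts4 in both hearts, by a log2 ratio of 2.86 ± 0.30 (SD, n = 2). Adamts20, the closest relative of Adamts9, had 0.69 and 0.39 TPM, and the log2 ratio of Adamts9 to Adamts20 was 5.46 ± 0.66 (SD, n = 2), against 4.74 in the second quantification.

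All 3 procollagen N-proteinases, which remove the amino-terminal propeptide of fibrillar procollagens, were expressed. Adamts2 had 12.6 TPM in replicate 1 and 16.5 TPM in replicate 2. Adamts3, known also for processing the lymphatic growth factor VEGF-C, had 4.63 and 5.88 TPM. Adamts14 had 3.32 and 3.95 TPM. Adamts2 exceeded Adamts3 by a log2 ratio of 1.47 ± 0.03 (SD, n = 2) in TPM and 2.55 in CPM.

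Adamts10 and Adamts6, which are linked to fibrillin microfibrils, had 16.0 and 19.3 TPM and 9.67 and 9.09 TPM in replicates 1 and 2. Adamts19, linked in humans to valve disease, had 12.3 and 13.1 TPM, and its relative Adamts17 had 6.37 and 6.49 TPM. The log2 ratio of Adamts17 to Adamts19 was −0.98 ± 0.04 (SD, n = 2). Adamts7 and Adamts12, which cut the matrix protein COMP, had 7.75 and 8.61 TPM and 7.27 and 9.19 TPM, and their order differed between the hearts in TPM. That order depended on the quantification: Adamts7 was the higher one in both hearts in the second quantification, with log2 ratios to Adamts12 of 0.34 and 0.11, and the lower one in both in CPM, with −0.63 and −0.81. Comp itself had 1.12 and 1.25 TPM. Adamts16, Adamts18 and Adamts13, the von Willebrand factor protease known from the liver, each stayed below 0.25 TPM on average.

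All 5 ADAMTS-like genes were expressed, and they summed to 32.5 TPM in replicate 1 and 35.2 TPM in replicate 2. Adamtsl5 had 14.5 and 15.5 TPM. Adamtsl4 had 6.45 and 5.51 TPM and Adamtsl2, a microfibril protein whose loss causes geleophysic dysplasia in humans, had 5.06 and 6.58 TPM, and their order differed between the hearts in TPM. Adamtsl2 was the lower one in both hearts in the second quantification (mean log2 ratio −0.83), in CPM and when only protein-coding transcripts were counted (−0.82). Adamtsl3 and Adamtsl1 had 3.11 to 4.29 TPM. Among fibrillin genes, Fbn1, which encodes the main microfibril protein, had 99.0 and 105 TPM, and Fbn2 had 32.0 and 31.2 TPM.

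**Figure D3:**
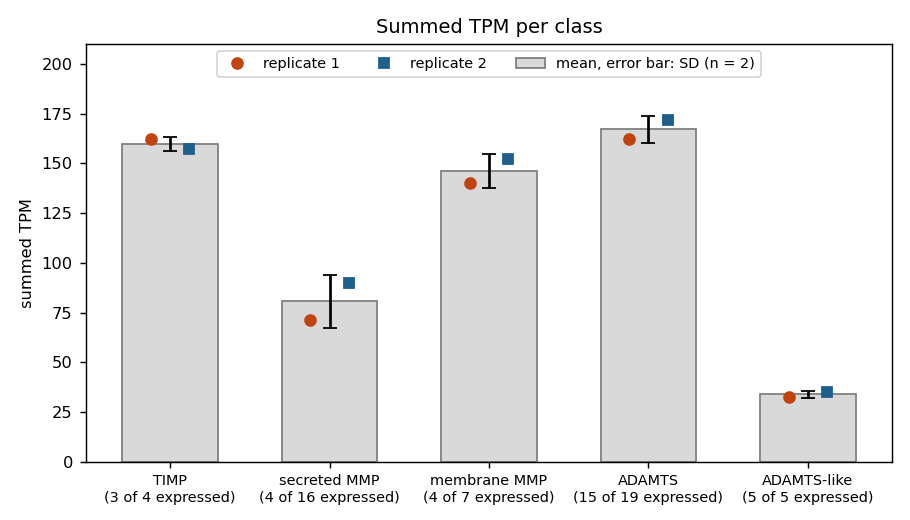
Summed TPM of each class (bars, mean of 2 hearts, with error bars of 1 SD), with circles for replicate 1 and squares for replicate 2. TIMPs, membrane MMPs and ADAMTS proteases each summed to between 140 and 172 TPM in each heart, secreted MMPs to 71.3 and 90.0 TPM and ADAMTS-like genes to 32.5 and 35.2 TPM.

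Of the inhibitors, Timp2 had the highest TPM of all members in both hearts, and Timp4 was the only one below 1 TPM. Timp2, which inhibits MMPs and also links pro-MMP2 to Mmp14 at the cell surface, had 91.2 TPM in replicate 1 and 84.6 TPM in replicate 2. A second quantification of the same reads gave 161 and 147 TPM, with Timp2 again first. In CPM Timp2 was not first: it had 184 and 184, below Mmp15 at 246 and 256 and Timp3 at 210 and 204. The 3709-base Timp2 transcript alone had 60.6 and 63.8 TPM, below Mmp15 at 64.6 and 70.9 TPM. Timp3, the matrix-bound inhibitor that also blocks ADAMTS4 and ADAMTS5, had 61.5 and 61.2 TPM. The log2 ratio of Timp2 to Timp3 was 0.52 ± 0.07 (SD, n = 2) per length, but −0.17 in CPM.

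Timp1, a strong inhibitor of Mmp9 and a weak one of membrane MMPs, had 8.77 TPM in replicate 1 and 10.7 TPM in replicate 2. Timp4, known as a heart-enriched inhibitor in adults, had 0.57 and 0.91 TPM from 83 and 89 counts, the highest mean among the members that missed the threshold. The log2 ratio of Timp4 to Timp1 was −3.75 ± 0.27 (SD, n = 2) in TPM and −1.18 in CPM. Timp4 passed the threshold of 1 in CPM, at 2.29 and 2.74, and when TPM was rescaled over nuclear protein-coding genes, and it passed a threshold of 0.5 TPM. Mmp19, at 1.01 and 1.30 TPM, was the lowest member inside the threshold.

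Timp1, Timp3 and Timp4 each lie inside a synapsin gene on the opposite strand, named here after its values were seen. The synapsins were lower than their guests for Timp1 (Syn1 at 0.18 and 0.12 TPM) and Timp3 (Syn3 at 0.17 and 0.18 TPM). For Timp4 the host Syn2 was higher, at 1.77 and 1.17 TPM. Overlapping exons on opposite strands are separated here only as far as the stranded libraries and the authors' counting allow.

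Together the TIMPs summed to 162 TPM in replicate 1 and 157 TPM in replicate 2, against 212 and 242 TPM for all MMPs. The log2 ratio of TIMP to MMP transcript was −0.50 ± 0.17 (SD, n = 2), and it was −1.30 ± 0.13 against MMPs and ADAMTS proteases together. The TIMP sum was the lower one in both hearts and in the second quantification, where the log2 ratios to MMPs were −0.07 and −0.30. With only protein-coding transcripts of the second quantification they were 0.03 and −0.22, so the direction then differed between the hearts. Timp2 exceeded Mmp14 in both hearts by a log2 ratio of 0.58 ± 0.13 (SD, n = 2). Timp3 and Mmp2 differed by −0.01 in replicate 1 and −0.38 in replicate 2 on the log2 scale. In CPM the log2 ratio of Timp3 to Mmp2 averaged 0.81, in the other direction.

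Each gene's TPM was the sum over its annotated transcripts, and these differ in annotated class. The protein-coding class is an annotation and includes short transcripts that cannot hold the full coding sequence. Over the 31 expressed members, protein-coding transcripts held 88.6% ± 0.164 of the TPM, retained-intron transcripts 7.43% ± 0.173, transcripts marked for nonsense-mediated decay 2.30% ± 0.200 and other processed transcripts 1.72% ± 0.137 (SD, n = 2). By mean share over the hearts, the leading transcript was protein-coding in all 31, and it held over 50% of the gene's TPM in 26. It was the same transcript in the second quantification for 24 of the 31. Protein-coding transcripts held at least 90% in 17 members and under 50% in 3.

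Those 3 were Adamts6, Adamts10 and Adamtsl5. In Adamts6 the single leading coding transcript held 24.8% in replicate 1 and 32.2% in replicate 2, and the rest was assigned to transcripts marked for decay. In Adamts10, protein-coding transcripts held 36.6% and 34.3%, and in Adamtsl5 49.5% and 46.6%, with most of the rest in retained-intron transcripts. In replicate 2 a retained-intron Adamtsl5 transcript, at 24.4%, was just above the leading coding one, at 24.2%. Adamtsl2 lay at the border, with 54.7% in replicate 1 and 46.4% in replicate 2, but the second quantification gave 81.6% and 80.9%. At the other end, Timp1, Timp2, Adamts4, Adamts5 and Adamts14 had protein-coding transcripts only.

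The TPM of the 2 highest genes was split between a long and a short transcript, both annotated as protein-coding. For Timp2 the 3709-base transcript held 66.4% in replicate 1 and 75.4% in replicate 2, and the 718-base transcript held the remaining 33.6% and 24.6%. The second quantification assigned 52.9% and 46.8% to the short form, and its Timp2 total was 1.76 times higher. For Mmp2 the 3078-base transcript held 68.3% and 66.1%, and a 674-base form 31.3% and 33.9%. That form is too short for the 662 codons of the longest Mmp2 coding sequence. TPM is per length, and the short forms held a smaller part of the estimated counts. The short Timp2 form had 532 and 316 counts, against 6138 and 5653 for the long one. The short Mmp2 form had 314 and 382 counts, against 3545 and 3861. Mmp11 and Adamtsl4 also had totals over 1.5 times higher in the second quantification, by 1.79 and 1.52 times, and the median over the 31 members was 1.28 times.

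**Figure D4:**
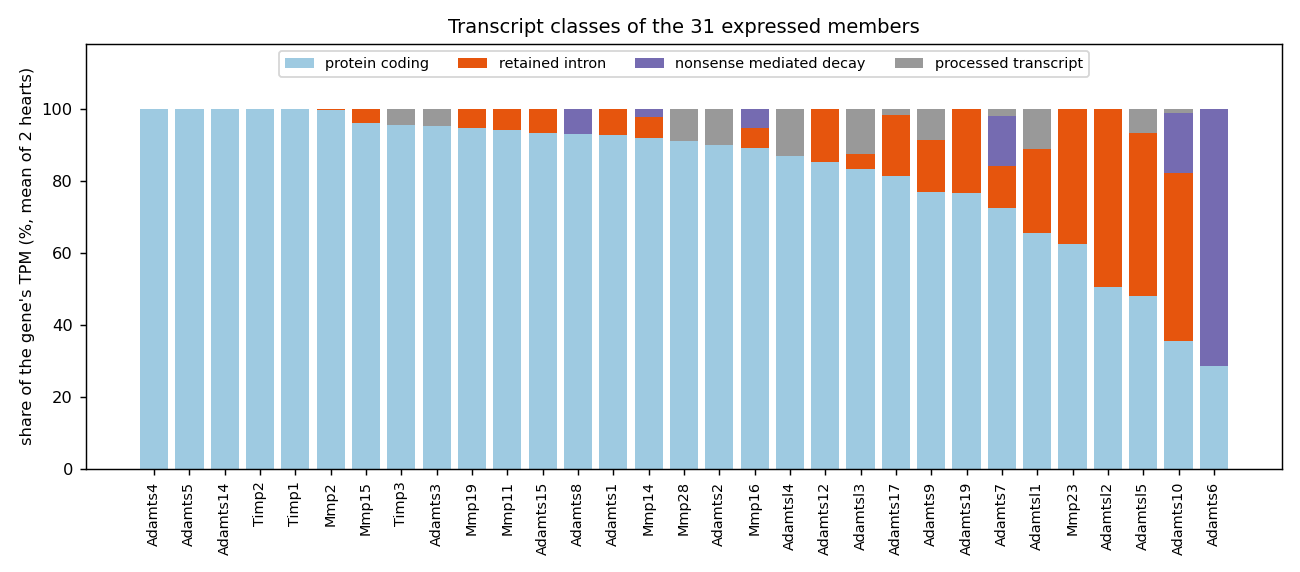
Share of each gene's TPM (percent, mean of 2 hearts) assigned to protein-coding, retained-intron, nonsense-mediated decay and other processed transcripts, for the 31 expressed members ordered by the protein-coding share. The share is 100% in the leftmost genes and falls below 50% in Adamtsl5, Adamts10 and Adamts6 at the right.

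The 2 hearts were then compared gene by gene on counts scaled by the trimmed mean of M-values (TMM). Calls needed at least a 2-fold ratio and an exact 95% interval excluding equality, which covers counting error and not the spread among mice. Among 13598 tested genes, 0.537% were called with more counts in replicate 1 and 0.324% with more in replicate 2. Of the 31 members tested, 0 were called in either direction, by this rule or at 1.5-fold. With 1 library on each side no test over samples was possible, and no p-value was given. The members' log2 ratios, replicate 1 over replicate 2, ran from −0.32 to 0.27 with a median of −0.02, against a median of 0.00 over all tested genes.

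The intervals of 10 members excluded equality at any size of difference (10 of 31, against 23.7% of all tested genes). Adamts1 was the most different member in the direction of replicate 1, with 3615 counts in replicate 1 and 2771 counts in replicate 2 and a log2 ratio of 0.27 (95% interval 0.20 to 0.35). Timp3 and Timp2 had small log2 ratios in the same direction, 0.09 and 0.05, and both turned negative when scaled to the spike-ins, which moved the median of all genes to −0.13. In the direction of replicate 2, Adamts2 had the largest difference, with 2324 and 2693 counts in replicates 1 and 2 and a log2 ratio of −0.32 (95% interval −0.40 to −0.24). Adamts15, Mmp16, Mmp2, Adamts10, Adamtsl3 and Adamts12 followed with log2 ratios between −0.27 and −0.20.

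The hearts also differed in their tissue make-up, as far as markers show it. Summed over 6 genes, fibroblast markers had 1125 TPM in replicate 1 and 1336 TPM in replicate 2, and all 6 were lower in replicate 1, with a median log2 count ratio of −0.15. All 4 epicardial markers were higher in replicate 1, with a median of 0.79, and sums of 51.6 and 33.5 TPM. Erythroid markers summed to 11398 and 142 TPM, skeletal muscle markers to 32.2 and 2.93 TPM, and neural and Schwann markers to 26.2 and 5.07 TPM. Cardiomyocyte markers, at 26291 and 26136 TPM, and the 4 endothelial markers, at 289.8 and 298.0 TPM, were high in both, as the tissue label requires. The part of these differences in the members' ratios was not tested.

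**Figure D5:**
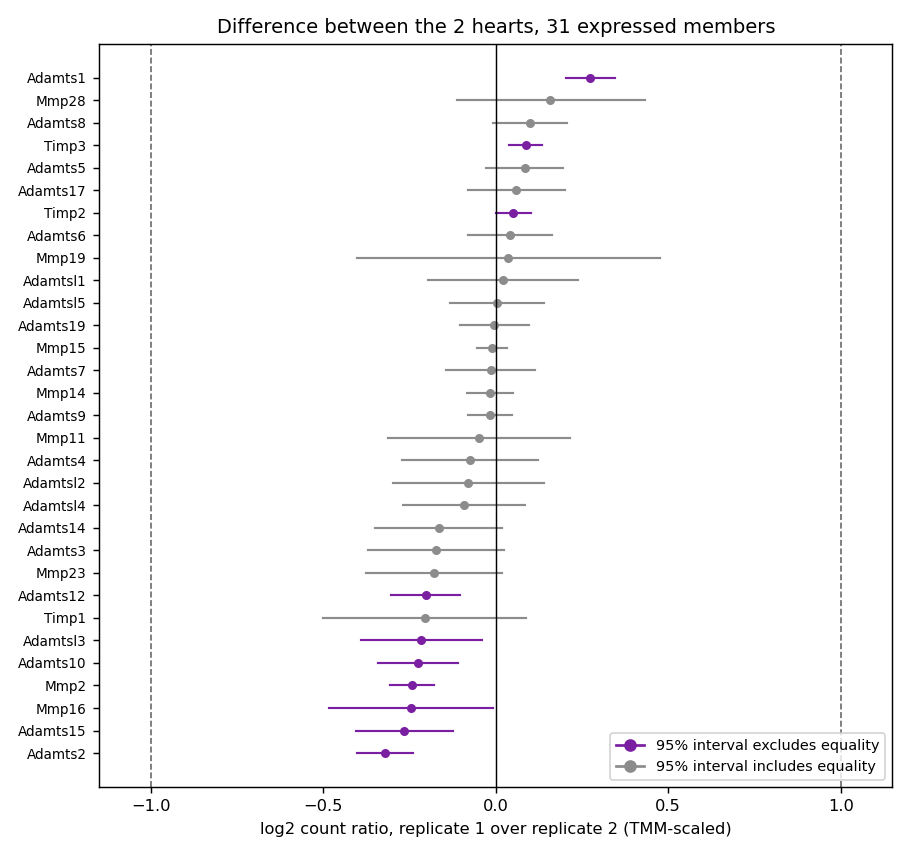
TMM-scaled log2 count ratio, replicate 1 over replicate 2, with exact 95% intervals for the 31 tested members, ordered by ratio. Purple intervals exclude equality and grey ones include it. All 31 points lie inside the dashed lines at 2-fold, between −0.32 and 0.27.

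Genes that act with these proteases were described from 8 lists of 70 genes in all, of which 55 were expressed and 0 of the 57 tested were called between the hearts. All 9 genes for pro-MMP activation and membrane partners were expressed. Bsg (the MMP inducer basigin) had 351 TPM in replicate 1 and 368 TPM in replicate 2, the tetraspanin Cd151 had 102 and 102 TPM, and Furin, the convertase that removes the propeptide of membrane MMPs, had 46.2 and 47.9 TPM. Itgav, the integrin alpha-V chain, had 28.7 and 31.1 TPM.

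Of the inhibitors and clearance receptors outside the TIMP family, 6 of 10 were expressed. Lrp1, the receptor that takes up protease and inhibitor complexes, had 30.5 and 35.1 TPM in replicates 1 and 2, and the serpin Serpine2 had 21.1 and 23.2 TPM. The membrane-anchored MMP inhibitor Reck had 5.27 and 5.04 TPM. In the plasminogen system 4 of 6 were expressed. Plat (tissue plasminogen activator) had 21.5 and 20.6 TPM, Plau (urokinase) 5.29 and 4.63 TPM, and Plg itself, made mainly in the liver, 0.05 and 0.02 TPM.

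Genes of other protease families were also measured. Of 10 ADAM genes 7 were expressed, led by Adam19, which is needed for endocardial cushion development in mice, at 71.3 TPM in replicate 1 and 81.3 TPM in replicate 2. Among 7 astacin and procollagen-processing genes 4 were expressed, with Bmp1, the procollagen C-proteinase, at 26.1 and 31.6 TPM and its enhancer Pcolce at 59.0 and 63.4 TPM. The meprins Mep1a and Mep1b had 0 counts in both hearts. All 7 genes of the cysteine cathepsin list were expressed, with Ctsb at 138 and 126 TPM and the inhibitor Cst3 at 233 and 246 TPM.

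The collagen and elastic-fibre list was the most abundant of the substrate lists. This list also holds Fn1 (229 and 228 TPM), Vwf, Thbs1 and Comp, which are neither collagen nor elastic-fibre genes. All 13 genes of the list were expressed. They summed to 2907 TPM in replicate 1 and 3319 TPM in replicate 2, against 568 and 607 TPM for all 51 members. Col3a1 led at 639.9 and 791.8 TPM, followed by Col4a1 at 455 and 469 TPM, Eln (elastin) at 413 and 505 TPM and Col1a1 at 382 and 458 TPM. Of the 8 genes in the proteoglycan list 5 were expressed, with Hspg2 (perlecan) at 207 and 207 TPM and Dcn (decorin) at 141 and 163 TPM. Vcan (versican), the substrate of the ADAMTS proteoglycanases, had 37.1 and 40.2 TPM, and Acan (aggrecan) had 1.84 and 2.60 TPM.

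Some members lie side by side in the genome and differ in level. On chromosome 16, Adamts1 and Adamts5 are 53.1 kb apart on the minus strand, with mean levels of 28.0 and 4.69 TPM. On chromosome 9, Adamts15 and Adamts8 are 20.1 kb apart and point away from each other, with means of 5.67 and 15.1 TPM. On chromosome 2, Adamts13 and Adamtsl2 are 69.8 kb apart on the plus strand, with means of 0.05 and 5.82 TPM.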

How the data were processed

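The authors deposited, per library, estimated (expected) counts, TPM values, isoform percent and posterior values per gene and transcript, and a second transcript quantification with estimated counts and TPM, all on mm10 and annotation M21, per the labels. No source used here names the aligner or quantifier. The second quantification was summed per gene. TPM covers all genes of a file. Estimated counts were rounded for the comparison between hearts, with TMM factors (edgeR 4.0.16), a prior count of 0.5 and Clopper-Pearson 95% intervals, for genes with mean TPM of at least 1 and 20 counts. It was tested on simulated data. Members with mean TPM of at least 5, and all TIMPs, are named with their values. Of each partner list, up to 4 genes by mean TPM and those at 0 are named, and a few lower ones were chosen after their values were seen. Members, classes and lists were chosen with earlier results of these data known. A planned scan of protein sequences was replaced by one of GENCODE M21 coding sequence for the zinc site, the cysteine switch and the TIMP start. The asparagine form of the zinc site was added after the first scan. The planned furin site and TIMP identity were not computed. Scripts ran in Python with R 4.3.3.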

Additional observations from a re-analysis of the deposited data

How the results depend on the processing

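No paired analysis was possible because the series holds 1 group. CPM, which ignores length, moved or turned several ratios (log2): ADAMTS to MMP sum to 0.31, Timp2 to Timp3 to −0.17, Timp3 to Mmp2 to 0.81, membrane to secreted MMP sum to 1.49, and TIMP to MMP and ADAMTS sum to −1.54. The second quantification moved the TIMP to MMP ratio to −0.19 and the TIMP to MMP and ADAMTS ratio to −0.998, and 13 of 15 pairs with a direction kept it. Counting protein-coding transcripts only, chosen after seeing the data, gave −1.13 for TIMP to MMP and ADAMTS and −0.70 for ADAMTS to MMP. The cause of these shifts was not tested beyond the change of unit or transcript set itself.

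Expressed members numbered 30 to 38 under the other thresholds and scales, against 31, and Timp4 passed under several of them. No member was called between the hearts under any alternative. Over all genes, calls numbered 357 with no TPM filter, 36 at a mean of at least 5 TPM and 311 at 1.5-fold, against 117. Spike-in scaling shifted the median of all genes to −0.13 and that of the members to −0.15, and then 20 member intervals excluded equality. Depth limits the 20 members that were not expressed, most of which had too few counts for a ratio. With either heart alone, the TIMP to MMP ratio ranged from −0.62 to −0.38 and the ADAMTS to MMP ratio from −0.49 to −0.38. Members whose leading transcript held over 50% numbered 25 and 26, and those with under 50% in protein-coding transcripts 4 and 3.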
